A study of Mus musculus with 9 samples.

Results

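Messenger RNA of 35 liver genes for the urea cycle and the breakdown of amino acids was followed through 3 groups of 3 mouse livers. The genes were taken by symbol from a list of enzymes of these pathways, and all 35 were found among the 24541 gene symbols of the deposited values. All mice were Balb/c, 9 weeks old, and each library came from 1 liver. The 3 vehicle livers were the controls, the 3 APAP livers came from mice given acetaminophen, and the 3 LRH1+APAP livers from mice given acetaminophen and LRH1, the nuclear receptor encoded by Nr5a2. The labels name no dose, route, time, sex or means of giving LRH1, and none names a group with LRH1 and without acetaminophen. The series text, however, calls the third treatment LRH1 alone, where each sample label of that group reads LRH1+APAP. The sample labels were used here, and every LRH1+APAP value depends on them. Nothing in the labels says whether the livers of a group came from separate experiments, so p-values measure the spread between these livers. That spread was pooled over the 3 groups.

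The urea cycle turns ammonia, which is toxic, into urea, and in mammals it runs chiefly in hepatocytes of the periportal zone. Hepatocytes also hold most of the enzymes that open the rings of histidine, tryptophan and tyrosine, take amino groups off amino acids, and degrade lysine, proline and glycine. Acetaminophen is oxidised by cytochrome P450 enzymes of pericentral hepatocytes to a reactive metabolite that depletes glutathione and kills cells.

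Levels are given as FPKM, fragments per kilobase of transcript and scaled to the mapped fragments of the library, summed over the transcript models of a gene. The receptor itself was checked first. Nr5a2 was at 14.7, 13.1 and 12.3 FPKM in vehicle livers 1 to 3, at 10.8, 9.29 and 10.3 in the APAP livers and at 206, 83.8 and 113 in the LRH1+APAP livers. Every LRH1+APAP liver was above all others, with a log2 difference from APAP of 3.50 (SE 0.27, adjusted p = 0.00102). Here and below a log2 difference is one of log2(FPKM + 1) from limma, the adjusted p is a Benjamini-Hochberg value over 12202 genes tested, and the threshold for a call was an adjusted p below 0.05.

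In vehicle livers the 35 genes spanned from 2039 ± 93.2 FPKM for Hpd, an enzyme of tyrosine breakdown, to 4.04 ± 0.827 FPKM for Acmsd, which diverts the kynurenine pathway from NAD synthesis (mean ± SD, n = 3). Tdo2 at 1170 ± 106, Arg1 at 967 ± 10.5 and Cps1 at 712 ± 20.8 FPKM were the next in order, and their ranges over the 3 livers did not overlap. All 35 passed the filter of a mean of 0.5 FPKM over the 9 livers, the lowest of them being Acmsd.

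Together the 35 genes held 1.47 to 1.55 percent of all FPKM with vehicle, 0.759 to 1.05 percent with APAP, and 1.15 to 1.3 percent with LRH1+APAP. The 3 ranges did not overlap. In sum this was 8345 to 8584 FPKM with vehicle, 4187 to 5829 with APAP, and 5997 to 6879 with LRH1+APAP. In bulk tissue fewer hepatocytes and less RNA per hepatocyte cannot be told apart, and in the same livers the sum of 7 hepatocyte genes, Alb and Ttr among them, was 54623 to 58569, 52648 to 56636 and 51333 to 57745 FPKM, with overlap between all groups. Most of that sum was Alb, and its genes went both ways, with Fgb, Ahsg and Serpina1c higher and Apob and Ttr lower in APAP than in vehicle livers, and Apoa1, Fgb and Ahsg lower with LRH1 than in APAP.

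In APAP livers 29 of the 35 genes were lower than in vehicle livers, 2 were higher (Gldc and Agxt) and 4 did not pass (Nags, Arg1, Hal and Got1). Of all genes tested, 15.1 percent were lower and 47.8 percent higher. The median log2 difference of the 35 was -0.71, against 0.25 for all genes tested, which is -0.96 relative to that median. The split of all genes depended on scaling, with 31.2 percent higher and 26.4 percent lower after upper-quartile scaling, and 25.6 and 30.3 percent after quantile normalization. Among the 35 genes the same scalings gave 1 higher and 30 lower, and 2 higher and 28 lower.

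In LRH1+APAP livers 15 of the 35 genes were higher than in APAP livers and 20 did not pass, where 7.13 percent of all genes were higher. None of the 35 was lower by limma at the adjusted threshold, where 5.17 percent of all genes were, and at an unadjusted p under 0.05 there was 1, Agxt, with 20 higher. The median log2 difference was 0.39, against -0.01 for all genes tested, and 30 of the 35 values were above 0. This count of 15 changed with the livers in the fit, the filter, the scaling, the transcript models and the trend. Upper-quartile scaling gave 10, where 6.64 percent of all genes were higher. Quantile normalization kept 13 of the 15 and added 1, where 7.7 percent were. The transcript model of highest mean kept 11 and added 1, beside 5.24 percent, and a fit with no intensity trend kept 12, beside 6.97 percent. The count was 9 with no filter on low values, where 4.15 percent of all genes were higher, and 1 when only the 6 livers of both groups were fitted, where 1.57 percent were. It was 5, 5 and 7 without vehicle liver 1, 2 or 3, beside 4.51, 4.24 and 5.05 percent of all genes. Without APAP liver 1, 2 or 3 it was 24, 6 and 1, beside 16.7, 4.58 and 2.92 percent. Without any one of the LRH1+APAP livers it was 1, beside 2.96, 1.67 and 1.29 percent for livers 1, 2 and 3. A count of 1 of 35 is near the share of all genes in those fits. Acmsd was higher in each of these fits, and wherever the count was 1 the other 14 genes did not pass. Over all alternatives the calls of those 14 were lost in between 5 of 19 (Aldh4a1, Amt and Pipox) and 17 of 19 (Dmgdh). Between these, Kynu lost it in 6, Afmid and Hgd in 8, Bckdhb in 9, Tdo2 in 10 and Sds in 11. Otc, Hpd and Prodh lost it in 13, and Ivd in 14.

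Against vehicle, 20 of the 35 genes were lower in LRH1+APAP livers, 1 was higher (Gldc) and 14 did not pass. In this comparison 8.02 percent of all genes were lower and 39.2 percent higher, or 19.6 and 19.3 percent after upper-quartile scaling and 21.5 and 15.6 percent after quantile normalization. The scalings gave 25 of the 35 lower and 0 higher, and 20 lower and 1 higher, respectively. With upper-quartile scaling Gldc had an adjusted p of 0.0616 and was no longer called. The median of the 35 was -0.40, against 0.22 for all genes. Without 1 liver the count of 20 fell to 8, 11 and 10 (vehicle 1, 2 and 3), and to 10 and 7 (LRH1+APAP 1 and 3). The share of all genes lower in these fits was 4.98, 4.75 and 5.58 percent, and 5.32 and 4.46 percent. The 3 comparisons share livers with each other, so their values are set side by side and no agreement between them is counted.

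**Figure D1:**
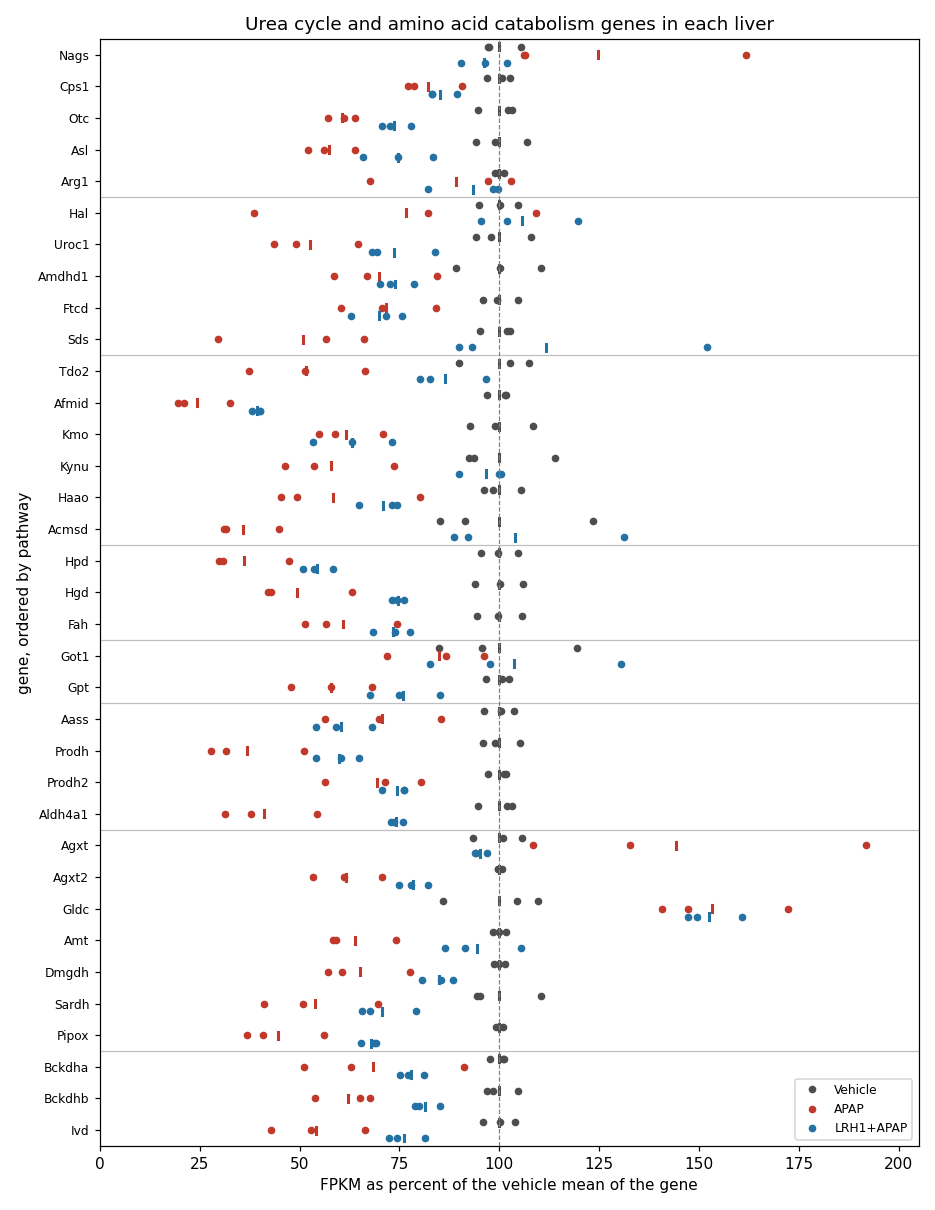
FPKM of each of the 35 genes in each of the 9 livers, as percent of the vehicle mean of that gene, with points for livers and short bars for group means. Most APAP points sit left of 100 percent, and most LRH1+APAP means lie between the APAP and vehicle means. The single LRH1+APAP points overlap APAP or vehicle points for many genes. Gldc and Agxt have APAP means of 153 and 144 percent.

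The promoters of 4 genes are shown because their messages stood at the ends of the range or held a searched motif. Afmid fell most under acetaminophen, Gldc was higher in both treated groups, and Agxt2 and Ftcd held motifs. The stretches run 5′ to 3′ on the strand of the gene and end at the last base before the start given by RefSeq on GRCm38.p6, with motif matches in capitals. They are chr11:117825769-117825918 on the plus strand for Afmid, chr19:30175442-30175591 on the minus strand for Gldc, chr15:10358383-10358532 on the plus strand for Agxt2, and chr10:76575498-76575647 on the plus strand for Ftcd.
Afmid: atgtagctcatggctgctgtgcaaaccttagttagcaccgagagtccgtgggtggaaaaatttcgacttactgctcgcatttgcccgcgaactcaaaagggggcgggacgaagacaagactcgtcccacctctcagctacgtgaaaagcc
Gldc: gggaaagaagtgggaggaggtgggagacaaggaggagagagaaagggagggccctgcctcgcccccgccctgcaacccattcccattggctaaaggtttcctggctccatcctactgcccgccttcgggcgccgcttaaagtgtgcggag
Agxt2: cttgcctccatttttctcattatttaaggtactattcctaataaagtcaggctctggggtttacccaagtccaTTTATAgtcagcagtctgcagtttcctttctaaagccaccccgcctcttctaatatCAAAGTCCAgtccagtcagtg
Ftcd: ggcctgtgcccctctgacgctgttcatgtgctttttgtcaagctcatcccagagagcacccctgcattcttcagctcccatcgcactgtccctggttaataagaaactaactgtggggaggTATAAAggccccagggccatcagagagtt
RefSeq held 31 promoters, each from 250 bases before the start to 50 after it, for 29 of the 35 genes. The letters CAAGGTCA, an element that LRH1 is known to bind, occurred on either strand in 0 of the 31 and in 1.56 percent of 32851 mouse promoters. CAAAGTCCA, an HNF4 element, occurred in 3 of the 31, at both starts of Agxt2 and in Pipox, and in 0.475 percent of all. TATAAA occurred in 6 of the 31 and in 13.6 percent of all. The C/EBP element TTGCGCAA and the cAMP response element TGACGTCA were in 0 of the 31, and in 0.183 and 1.79 percent of all. Only CAAGGTCA and the other exact letters were searched, and a missing match says nothing of binding. The 2 windows of Agxt2 overlap and hold the same sites, so the 3 HNF4 matches lie at 2 places and the 6 TATAAA matches at 5, and no match overlapped one of another motif.

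Of the 5 urea cycle genes, Cps1, Otc and Asl fell in APAP livers, and Otc passed as higher with LRH1 than in APAP, a call lost in 13 of 19 alternative fits. Nags makes N-acetylglutamate, the activator of Cps1. The Nags values were 26.5, 26.4 and 28.7 FPKM in vehicle livers, 29.0, 44.0 and 28.9 in APAP livers and 27.7, 26.3 and 24.6 in LRH1+APAP livers. Every APAP liver was above every other liver, 2 of them narrowly and liver 2 widely. The log2 differences did not pass, at 0.28 (SE 0.15, adjusted p = 0.127) against vehicle and -0.34 (SE 0.15, adjusted p = 0.154) for LRH1+APAP against APAP.

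Cps1 makes carbamoyl phosphate from ammonia in mitochondria, the first committed step. For Cps1, the 3 vehicle livers held 716, 689 and 730.2 FPKM, the 3 APAP livers 548, 559 and 645, and the 3 LRH1+APAP livers 591, 636 and 592. All APAP livers were below all vehicle livers, while APAP and LRH1+APAP overlapped. The log2 difference of Cps1 was -0.29 (SE 0.08, adjusted p = 0.0133) in APAP, and did not pass after quantile normalization (adjusted p = 0.0678). With LRH1 it was 0.06 (SE 0.08, adjusted p = 0.648) against APAP.

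Otc joins carbamoyl phosphate to ornithine. Otc was at 168, 166 and 154 FPKM in vehicle livers 1 to 3, at 99.6, 92.9 and 104 in the APAP livers and at 118, 127 and 115 in the LRH1+APAP livers. The 3 groups of Otc did not overlap, with APAP lowest. Its log2 difference was -0.71 (SE 0.07, adjusted p = 0.000145) for APAP against vehicle and 0.28 (SE 0.07, adjusted p = 0.0418) for LRH1+APAP against APAP.

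Asl splits argininosuccinate into arginine and fumarate. The Asl values were 296, 274 and 261 FPKM in vehicle livers, 177, 156 and 144 in APAP livers and 207, 231 and 182 in LRH1+APAP livers. The order of the groups was as for Otc, again without overlap. The log2 difference was -0.80 (SE 0.11, adjusted p = 0.000482) for APAP against vehicle, and 0.38 (SE 0.11, adjusted p = 0.0562) for LRH1+APAP against APAP, which did not pass.

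Arg1 cleaves arginine to urea and ornithine. For Arg1, the 3 vehicle livers held 978, 965 and 958 FPKM, the 3 APAP livers 995, 654 and 940.1, and the 3 LRH1+APAP livers 952, 963 and 794. APAP liver 2 stood low and the other APAP livers lay near the vehicle livers. The log2 differences were -0.19 (SE 0.15, adjusted p = 0.311) in APAP and 0.08 (SE 0.15, adjusted p = 0.73) with LRH1 against APAP, and neither passed. With upper-quartile scaling the first was -0.46 with an adjusted p of 0.0459. Ass1, which makes argininosuccinate and is no member of the 35, was listed at 0.550 to 0.896 FPKM over the 9 livers. That is far below the other genes of the cycle, and since the way its reads were assigned is not given in the sources used here, it is not read as the level of Ass1 in liver.

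In the breakdown of histidine and serine, 4 of 5 genes fell in APAP livers and 1 of 5, Sds, was higher with LRH1 than in APAP. Sds deaminates serine to pyruvate. Sds was at 168, 181 and 179.9 FPKM in vehicle livers 1 to 3, at 117, 52.2 and 99.8 in the APAP livers and at 164, 268 and 159 in the LRH1+APAP livers. All APAP livers were below all others, APAP liver 2 was lowest, and LRH1+APAP liver 2 was above every vehicle liver. The log2 difference of Sds was -1.05 (SE 0.29, adjusted p = 0.0132) for APAP against vehicle and 1.16 (SE 0.29, adjusted p = 0.0374) for LRH1+APAP against APAP. Means were 50.8 and 112 percent of vehicle in the 2 treated groups. The call of Sds with LRH1 was lost in 11 of 19 alternative fits.

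The 4 histidine enzymes act in sequence. Hal removes ammonia from histidine and had log2 differences of -0.49 in APAP and 0.56 with LRH1 against APAP, neither of which passed. Its APAP livers held 37.7, 13.3 and 28.3 FPKM, a wide range that spanned the vehicle values. Without APAP liver 1, Hal passed as lower at -0.79. Uroc1, the urocanate hydratase, Amdhd1, the imidazolonepropionase, and Ftcd, which hands the formimino group to folate, fell by 0.94, 0.51 and 0.49 on the log2 scale in APAP livers. With LRH1 against APAP they gave 0.50, 0.09 and -0.03, none of which passed. Hal and Amdhd1 are neighbours on chromosome 10, at chr10:93488769-93516761 and chr10:93523339-93540033 of mm10, with 6577 bases between them.

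All 6 genes of tryptophan and kynurenine breakdown fell in APAP livers, and 4 of them (Tdo2, Afmid, Kynu and Acmsd) were higher with LRH1 than in APAP. In order of the pathway, Tdo2 opens the indole ring, Afmid removes formate, Kmo hydroxylates kynurenine, Kynu cleaves it, Haao opens the second ring, and Acmsd removes a carboxyl group. Afmid had the largest fall of the 35 genes. The Afmid values were 86.7, 86.4 and 82.5 FPKM in vehicle livers, 27.8, 16.6 and 18.0 in APAP livers and 34.2, 34.2 and 32.4 in LRH1+APAP livers. The 3 groups did not overlap, with APAP lowest and LRH1+APAP between, and the gap from the highest APAP liver to the lowest LRH1+APAP liver was smaller than the SD of the APAP livers. Afmid differed by -2.02 (SE 0.16, adjusted p = 5.68e-05) on the log2 scale for APAP against vehicle and by 0.70 (SE 0.16, adjusted p = 0.0292) for LRH1+APAP against APAP, a call lost in 8 of 19 alternative fits. Against vehicle the LRH1+APAP value of Afmid was -1.32 (SE 0.16, adjusted p = 0.000481), and the means were 24.4 and 39.4 percent of vehicle.

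Acmsd was the tryptophan gene with the largest difference between LRH1+APAP and APAP. For Acmsd, the 3 vehicle livers held 4.98, 3.44 and 3.69 FPKM, the 3 APAP livers 1.81, 1.27 and 1.26, and the 3 LRH1+APAP livers 3.58, 5.30 and 3.72. LRH1+APAP and vehicle livers overlapped, and every APAP liver was below both. The log2 difference of Acmsd was -1.04 (SE 0.16, adjusted p = 0.000901) for APAP against vehicle and 1.08 (SE 0.16, adjusted p = 0.00853) for LRH1+APAP against APAP, with means of 35.8 and 104 percent of vehicle. Levels this low make the log2 difference depend on the pseudocount, and it ran from 0.51 to 1.47 over the fits in which Acmsd was tested, with adjusted p from 0.00186 to 0.0365.

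Tdo2 averaged 605 ± 169 FPKM in APAP and 1012 ± 104 in LRH1+APAP livers (mean ± SD, n = 3), a log2 difference of 0.78 (SE 0.19, adjusted p = 0.0334). Kynu averaged 18.5 ± 4.53 and 31.0 ± 1.90 FPKM, with 0.74 (SE 0.16, adjusted p = 0.0232). These calls of Tdo2 and Kynu were lost in 10 and 6 of 19 alternative fits. Kmo stood at 43.8 ± 5.94 FPKM in APAP and 45.0 ± 7.06 in LRH1+APAP livers, both below 71.2 ± 5.74 in vehicle livers. Its log2 difference between the treated groups was 0.03, and that against vehicle was -0.66 (SE 0.13, adjusted p = 0.00479) in LRH1+APAP. Haao differed by 0.32 between the treated groups and did not pass.

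All 3 genes of tyrosine breakdown fell in APAP livers, and Hpd and Hgd were higher with LRH1 than in APAP. The LRH1 calls of Hpd and Hgd were lost in 13 and 8 of 19 alternative fits. Hpd converts hydroxyphenylpyruvate to homogentisate. Hpd was at 2134, 2034 and 1948 FPKM in vehicle livers 1 to 3, at 966, 610.0 and 626 in the APAP livers and at 1038, 1188 and 1095 in the LRH1+APAP livers. The 3 groups did not overlap, and APAP liver 1 was nearest to the LRH1+APAP livers. The log2 difference of Hpd was -1.51 (SE 0.16, adjusted p = 0.000189) for APAP against vehicle and 0.62 (SE 0.16, adjusted p = 0.0418) for LRH1+APAP against APAP. Hgd, which opens the ring of homogentisate, fell by 1.04 in APAP and was 0.62 higher with LRH1 on the log2 scale. Fah, which splits fumarylacetoacetate in the last step, fell by 0.73, and its 0.28 with LRH1 did not pass.

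Of the 2 aminotransferases, Gpt fell in APAP livers and Got1 did not pass. Gpt and Got1 move amino groups from alanine and aspartate, and their proteins are the enzymes measured in serum as signs of liver damage. The Gpt values were 157, 150.3 and 159 FPKM in vehicle livers, 106, 74.4 and 89.7 in APAP livers and 116, 132 and 105 in LRH1+APAP livers. All APAP livers were below all vehicle livers, and APAP overlapped LRH1+APAP at one liver each. Gpt differed by -0.80 (SE 0.13, adjusted p = 0.00105) for APAP against vehicle and by 0.40 (SE 0.13, adjusted p = 0.0749) for LRH1+APAP against APAP, which did not pass. Got1 gave -0.23 and 0.27, with vehicle livers at 63.5, 45.1 and 50.8 FPKM.

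All 4 genes of lysine and proline breakdown fell in APAP livers, and Prodh and Aldh4a1 were higher with LRH1 than in APAP. Those calls with LRH1 were lost in 13 (Prodh) and 5 (Aldh4a1) of 19 alternative fits. Prodh and Aldh4a1 turn proline into glutamate in 2 mitochondrial steps. For Prodh, the 3 vehicle livers held 95.3, 92.2 and 101 FPKM, the 3 APAP livers 49.1, 30.4 and 26.9, and the 3 LRH1+APAP livers 58.1, 62.4 and 52.1. APAP liver 1 was highest of its group and the groups did not overlap. Prodh differed by -1.46 (SE 0.19, adjusted p = 0.000405) for APAP against vehicle and by 0.73 (SE 0.19, adjusted p = 0.0418) for LRH1+APAP against APAP. Aldh4a1 was at 117, 115 and 107 FPKM in vehicle livers 1 to 3, at 61.6, 35.5 and 42.7 in the APAP livers and at 85.9, 83.2 and 82.5 in the LRH1+APAP livers. The LRH1+APAP livers lay close together and between the other groups. Aldh4a1 differed by -1.30 (SE 0.17, adjusted p = 0.000368) in APAP and by 0.87 (SE 0.17, adjusted p = 0.0183) with LRH1 against APAP. Prodh2, which oxidises hydroxyproline, fell by 0.53 in APAP and gave 0.11 with LRH1. Aass, which starts lysine breakdown, fell by 0.52 and gave -0.21, and against vehicle it was -0.72 (SE 0.14, adjusted p = 0.00459) in LRH1+APAP livers.

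The 7 genes of glycine, glyoxylate and methylated glycines held both genes that rose in APAP livers, while the other 5 fell. Amt, Dmgdh and Pipox were higher with LRH1 than in APAP, calls lost in 5, 17 and 5 of 19 alternative fits. Pipox oxidises pipecolate and sarcosine in peroxisomes. The Pipox values were 194, 192 and 191 FPKM in vehicle livers, 108, 70.7 and 78.7 in APAP livers and 132, 133 and 126 in LRH1+APAP livers. Vehicle livers differed little, APAP was lowest, and there was no overlap. Pipox differed by -1.18 (SE 0.14, adjusted p = 0.00023) for APAP against vehicle and by 0.62 (SE 0.14, adjusted p = 0.0255) for LRH1+APAP against APAP. Dmgdh and Sardh strip methyl groups from dimethylglycine and sarcosine, and fell by 0.63 and 0.91 on the log2 scale in APAP. With LRH1 against APAP, Dmgdh gave 0.39 (SE 0.11, adjusted p = 0.0499) and Sardh 0.42, which did not pass.

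Gldc and Amt encode parts of one complex, the mitochondrial glycine cleavage system, in which Gldc releases carbon dioxide from glycine and Amt passes on the remaining carbon. For Gldc, the 3 vehicle livers held 21.5, 17.7 and 22.6 FPKM, the 3 APAP livers 35.5, 29.0 and 30.3, and the 3 LRH1+APAP livers 30.8, 33.2 and 30.4. Both treated groups lay above vehicle and overlapped each other. The log2 difference of Gldc was 0.60 (SE 0.11, adjusted p = 0.00172) in APAP and 0.59 (SE 0.11, adjusted p = 0.00314) in LRH1+APAP against vehicle. Amt was at 13.4, 13.2 and 13.6 FPKM in vehicle livers 1 to 3, at 9.91, 7.79 and 7.89 in the APAP livers and at 12.2, 11.6 and 14.1 in the LRH1+APAP livers. LRH1+APAP livers spanned the vehicle values of Amt, and all APAP livers were lower. Amt fell by 0.60 in APAP livers and differed by 0.52 (SE 0.10, adjusted p = 0.02) between LRH1+APAP and APAP. Gldc stood at 153 percent and Amt at 63.8 percent of vehicle in APAP livers.

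Agxt turns glyoxylate into glycine, chiefly in peroxisomes, and Agxt2 does so in mitochondria. The Agxt values were 94.6, 87.6 and 99.3 FPKM in vehicle livers, 125, 180.0 and 102 in APAP livers and 88.2, 90.9 and 88.4 in LRH1+APAP livers. Liver 2 stood far above the other APAP livers, and LRH1+APAP overlapped vehicle. The log2 difference of Agxt was 0.49 (SE 0.17, adjusted p = 0.036) for APAP against vehicle and lost its call in 10 of 19 alternative fits, with adjusted p up to 0.299. For LRH1+APAP against APAP it was -0.56 (SE 0.17, adjusted p = 0.0669). Agxt2 fell by 0.70 in APAP, and its 0.35 with LRH1 did not pass (adjusted p = 0.0505).

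The transcript models of these 2 genes split unevenly between livers, while 29 of the 35 genes had 1 model. The 2 models of Agxt have the same locus and length, and the first held 41.1 of 88.2 FPKM in LRH1+APAP liver 1 but 3.01 to 6.60 FPKM in the other 8 livers. The first of 3 models of Agxt2 held 15.8 FPKM in APAP liver 3 and 0.106 to 0.268 elsewhere, where the second was 8.0 FPKM in that liver and 35.3 to 59.3 elsewhere. Sums over models are therefore used for both genes, and no isoform was compared.

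**Figure D2:**
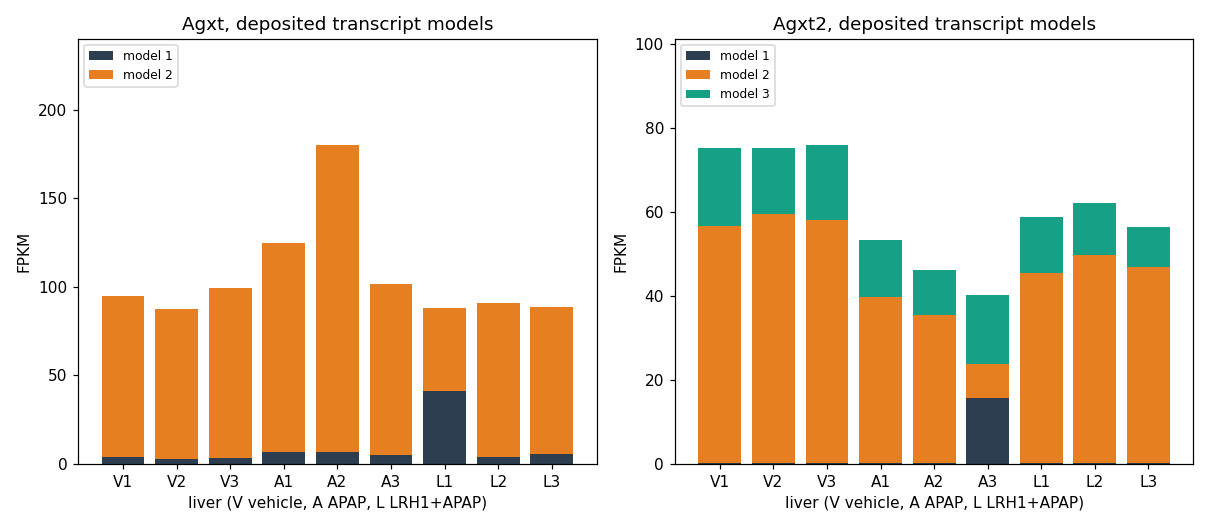
FPKM of the deposited transcript models of Agxt (2 models) and Agxt2 (3 models), stacked for each liver of the vehicle (V), APAP (A) and LRH1+APAP (L) groups. In L1 the 2 models of Agxt are near to equal, and in A3 model 2 of Agxt2 is the smallest of 3, unlike in the other livers.

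All 3 genes of branched-chain amino acid breakdown fell in APAP livers, and Bckdhb and Ivd were higher with LRH1 than in APAP. Their calls with LRH1 were lost in 9 (Bckdhb) and 14 (Ivd) of 19 alternative fits. Ivd oxidises isovaleryl-CoA on the leucine branch. For Ivd, the 3 vehicle livers held 66.1, 63.8 and 61.0 FPKM, the 3 APAP livers 42.2, 27.3 and 33.7, and the 3 LRH1+APAP livers 47.3, 51.8 and 46.1. The 3 groups of Ivd did not overlap. Its log2 difference was -0.89 (SE 0.14, adjusted p = 0.000797) for APAP against vehicle and 0.50 (SE 0.14, adjusted p = 0.0466) for LRH1+APAP against APAP. Bckdha and Bckdhb are the subunits of the E1 part of the branched-chain ketoacid dehydrogenase, and fell by 0.58 and 0.68. With LRH1 against APAP they gave 0.23, which did not pass, and 0.39 (SE 0.09, adjusted p = 0.0315). The fall of Bckdha did not pass without APAP liver 3 (adjusted p = 0.0540).

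**Figure D3:**
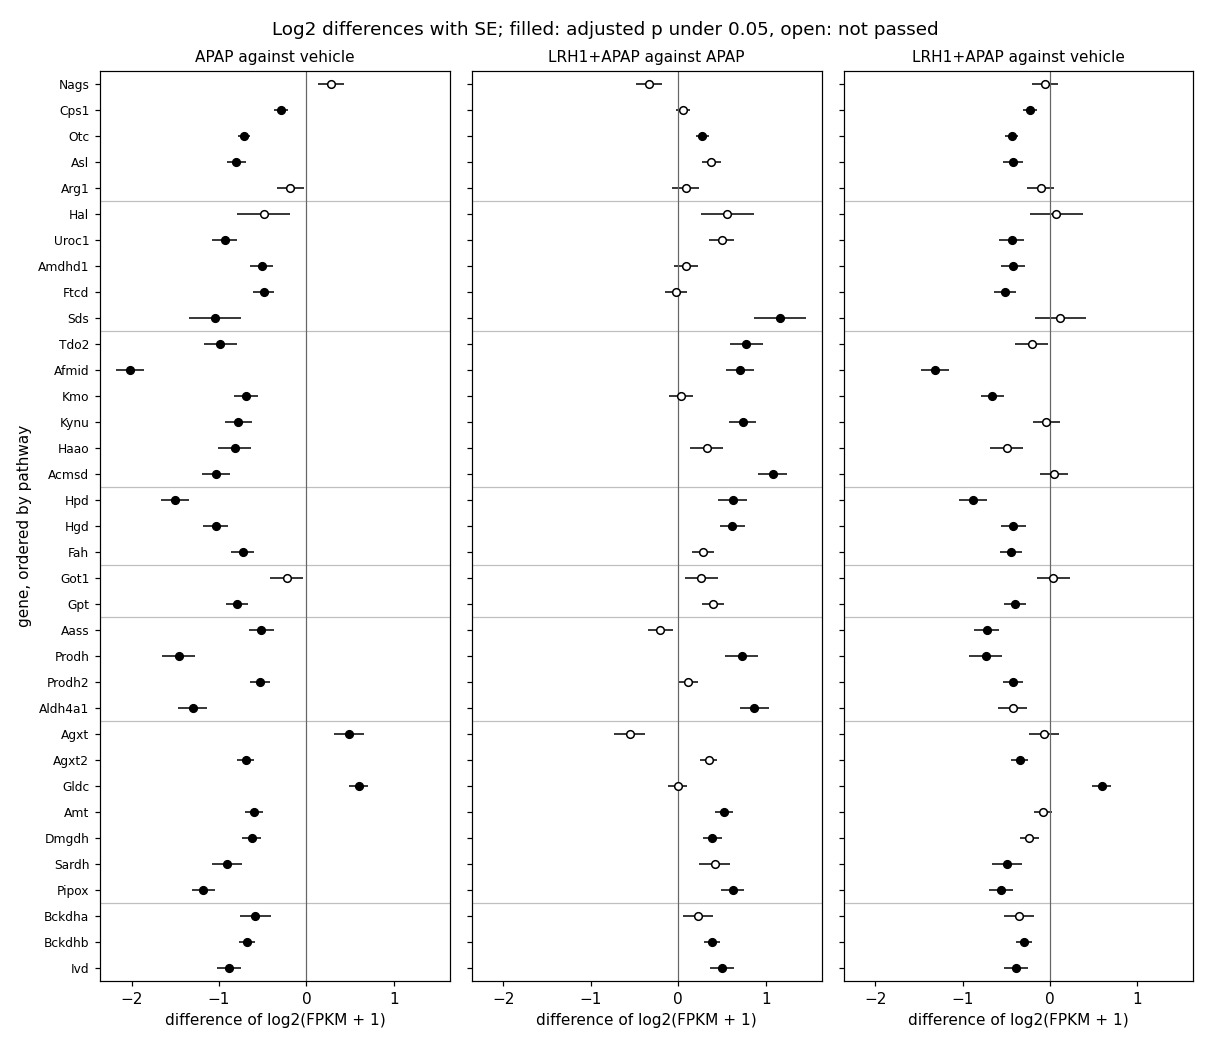
Difference of log2(FPKM + 1) of each of the 35 genes in the 3 comparisons, with its SE as the bar; filled points passed at an adjusted p under 0.05. In APAP against vehicle 29 filled points lie below 0 and 2 above, and in LRH1+APAP against APAP 15 filled points lie above 0.

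Summed over a pathway, tyrosine genes held 2524 to 2766 FPKM with vehicle, 888 to 1372 with APAP, and 1481 to 1647 with LRH1+APAP. Tryptophan genes held 1481 to 1646, 607 to 1040.1 and 1205 to 1412 FPKM. In both sums the 3 groups did not overlap. Hpd made up most of the tyrosine sum and Tdo2 most of the tryptophan sum in every liver. Taken singly, Fah, Kmo and Haao overlapped between APAP and LRH1+APAP livers. Urea cycle genes held 2121 to 2185, 1505 to 1862 and 1708 to 1984 FPKM, so the treated groups overlapped each other and both lay below vehicle. Of the other 5 sums, APAP and LRH1+APAP were separate for lysine and proline genes (at most 238 FPKM in APAP and at least 252 FPKM in LRH1+APAP livers), and overlapped for histidine and serine, aminotransferase, glycine and branched-chain genes. Within the lysine and proline genes, Prodh2 and Aass overlapped between APAP and LRH1+APAP, and Aass had a negative log2 difference.

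**Figure D4:**
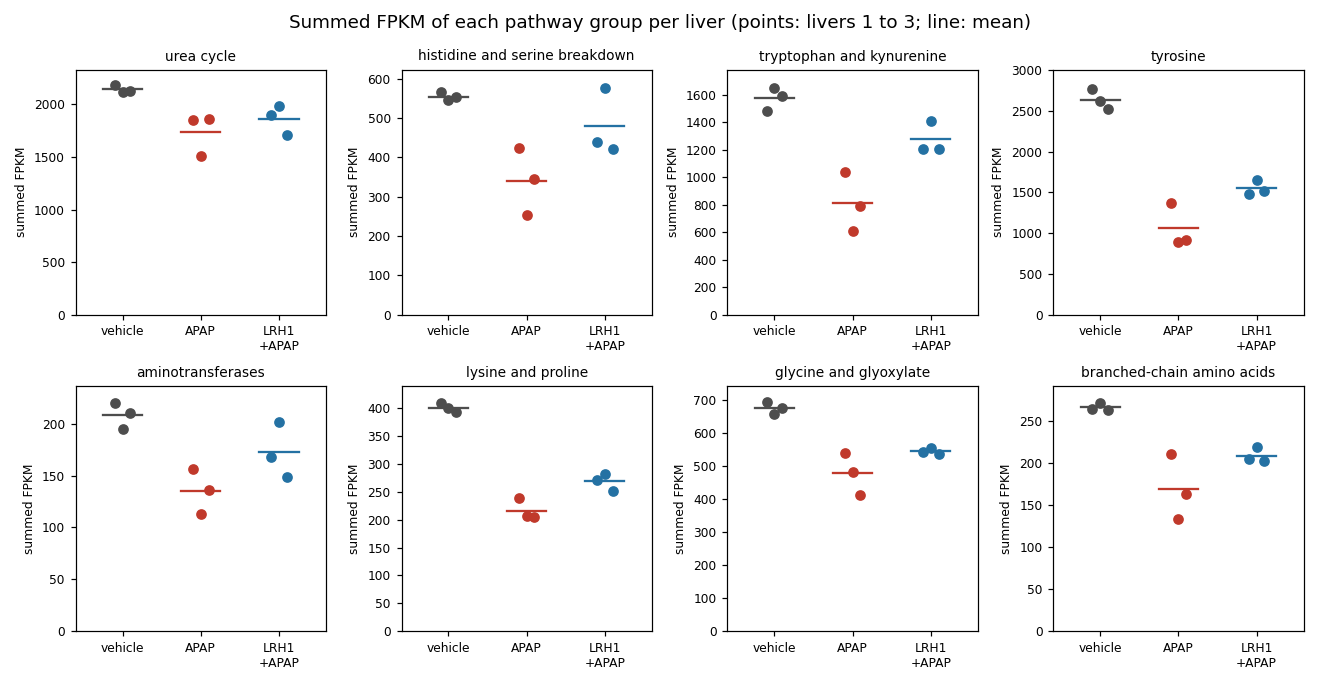
Summed FPKM of the 8 pathway groups in each liver, with the group mean as a line; each panel has its own axis, which starts at 0. The sums of tyrosine, tryptophan and lysine and proline genes show 3 separate groups, which does not hold for each gene in them. APAP and LRH1+APAP livers overlap in the other 5 panels.

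Livers of 1 group differed most under APAP. APAP liver 1 was the highest of its group for 29 of the 35 genes and APAP liver 2 the lowest for 24. LRH1+APAP liver 2 was highest for 28 of its group and liver 3 lowest for 24, while Nr5a2 was lowest in liver 2. The root mean square SD of log2(FPKM + 1) of the 35 genes was 0.0986 over vehicle livers, 0.333 over APAP livers and 0.147 over those with LRH1, against 0.178, 0.313 and 0.177 for all genes tested. The fit pooled 1 spread per gene over the 3 groups. In comparisons with APAP its SE therefore drew in part on the narrower spread of the other livers.

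Markers of other cells and zones moved with the groups, and their part in these results was not tested. The sum of 14 pericentral genes was 10563 to 11200 FPKM with vehicle, 2297 to 3179 with APAP, and 5496 to 6328 with LRH1+APAP, with 11 of 14 lower and 1 higher in APAP, and 11 of 14 higher and 1 lower with LRH1 against APAP. The sum of 10 periportal genes was 3009 to 3061, 1755 to 2497 and 1932 to 2119 FPKM, with 6 lower and 2 higher in APAP. Neutrophil genes, 7 in all, summed to 1.64 to 2.67, 30.2 to 473 and 5.34 to 6.40 FPKM, the 473 being APAP liver 2. The highest value in any liver was 232.2 FPKM for S100a9, 156 for S100a8, 54.81 for Retnlg, 16.41 for Mmp8 and 13.61 for Csf3r. Ly6g reached at most 0.368 FPKM and Mpo 0.0326. Other cell types gave more calls upward in APAP livers, with 4 of 5 Kupffer cell genes, 7 of 8 monocyte and macrophage genes, 5 of 6 endothelial, 3 of 7 stellate cell and fibroblast, 3 of 4 cholangiocyte, 3 of 5 erythroid, 5 of 5 neutrophil and 1 of 1 lymphocyte genes tested being higher than in vehicle. Of all genes tested, 47.8 percent were higher and 15.1 percent lower in APAP livers. The stellate cell and fibroblast list was below that share of higher genes, and the erythroid list not far above it. With LRH1 against APAP, 2, 1, 3, 1, 0, 0, 2 and 0 genes of these lists, in the same order, were lower. Of all genes tested, 5.17 percent were lower and 7.13 percent higher in that comparison. At an unadjusted p under 0.05 by limma, the lists with 0 genes lower had 0 cholangiocyte, 3 erythroid and 0 lymphocyte genes lower. By the same measure 2 monocyte and macrophage, 1 stellate cell and fibroblast and 1 cholangiocyte genes were higher. Kidney tubule genes, which would mark a tissue that also makes several of these enzymes, were at 0 (Umod, Kap and Slc12a1) or at most 0.0269 FPKM (Slc34a1), and 6 pancreatic acinar genes were at 0 in every liver. Without APAP liver 2 the counts of the 35 against vehicle were 29 lower and 2 higher, beside 12.9 and 44.7 percent of all genes. In that fit 6 in place of 15 were higher with LRH1 than in APAP, beside 4.58 percent. APAP livers 1 and 3 had neutrophil sums of 30.2 and 47.3 FPKM, above every vehicle liver, so the part of other cells was not tested by this fit.

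Of 54 other genes of these pathways, listed beside the 35, 50 were tested. In APAP livers 36 were lower and 3 higher (Gpt2, Sdsl and Arg2), with a median log2 difference of -0.68. Of all genes tested, 15.1 percent were lower and 47.8 percent higher. The 5 pathway genes with the smallest p were Ido2, a dioxygenase of tryptophan (-2.24), Glul, the glutamine synthetase (-2.56), Oat, an ornithine aminotransferase (-1.88), Mut, the methylmalonyl-CoA mutase (-0.86), and Tat, the tyrosine aminotransferase (-1.84). With LRH1 against APAP 11 of the 50 were higher and 1 lower, beside 7.13 and 5.17 percent of all genes. Glul (2.18), Oat (1.40), Tat (1.60) and Ido2 (1.00) were the 4 with the smallest p. The calls of these 50 genes were not followed through the alternative fits. Glul and Oat are also among the 14 pericentral genes. Sdsl, a gene related to Sds, was 0.94 in APAP against vehicle and -0.76 with LRH1 against APAP on the log2 scale, both past the threshold, where Sds had the opposite signs. Against vehicle 28 of the 50 were lower and 2 higher in LRH1+APAP livers, beside 8.02 and 39.2 percent of all genes. The 2 higher ones were Glud1, the glutamate dehydrogenase, at 0.45 and Slc25a15, the ornithine carrier, at 0.34.

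Of 14 regulators of these genes, 7 were lower and 3 higher in APAP livers, beside 15.1 and 47.8 percent of all genes tested. Their calls were not followed through the alternative fits. Klf15 is a factor known to raise transcripts of amino acid breakdown. Klf15 was at 92.6, 96.9 and 101 FPKM in vehicle livers 1 to 3, at 29.7, 10.3 and 18.5 in the APAP livers and at 55.4, 78.1 and 63.0 in the LRH1+APAP livers. APAP was lowest with no overlap, and the log2 difference of Klf15 was -2.37 (SE 0.30, adjusted p = 0.000374) for APAP against vehicle and 1.80 (SE 0.30, adjusted p = 0.012) for LRH1+APAP against APAP. Foxo1 (-0.62), Ppara (-1.23) and Ppargc1a (-0.55) were also lower in APAP, and Atf4, which answers amino acid shortage and stress, was higher at 1.48, with Cebpb at 0.50 and Creb3l3 at 0.33. With LRH1 against APAP, Ppargc1a (0.88) and Foxo1 (0.59) were higher besides Nr5a2 and Klf15, and Creb3l3 was lower (-0.64). Of all genes, 7.13 percent were higher and 5.17 percent lower. In LRH1+APAP against vehicle, 4 of the 14 regulators were higher and 2 lower, beside 39.2 and 8.02 percent of all genes. These 14 include Nr5a2, the gene of the receptor that was given, at 206, 83.8 and 113 FPKM in the LRH1+APAP livers.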

How the data were processed

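The 9 libraries came from liver RNA by the TruSeq mRNA protocol of Illumina, per the labels' protocols. The authors deposited FPKM per transcript model on mm10, and no scaling between libraries is stated. FastQC 0.10.0, Bowtie2 2.2.6 and StringTie 1.3.3b are named, without roles, per the submitters' processing notes. Strandedness of the counting is not given in the sources used here, so reads of overlapping genes may not be separated. Library depth is not stated. For genes with 1 model, the best-fitting step put 43.1 to 48.9 percent of low values within 0.05 of a whole read, at implied depths of 31.1 to 54.4 M fragments. Too many values were not whole to recover reads, so precision comes from the spread between livers.

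FPKM of 36779 models were summed per symbol. Genes averaging 0.5 FPKM or more over the 9 livers were tested on log2(FPKM + 1) with limma 3.58.1 in R 4.3.3, in 1 model of 3 group means with an intensity trend, 9 libraries and 6 residual degrees of freedom. Tests were two-sided with Benjamini-Hochberg adjustment over 12202 genes, and fold differences of low genes are understated by the pseudocount of 1. Alternatives changed the pseudocount, filter, scaling, libraries, models, trend and block, or left out 1 liver. Figures used Python 3.11.15 and matplotlib 3.10.9, and tables were read with the data.table package, version 1.17.8.

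The 35 members and the lists of pathway genes, regulators and markers were chosen with earlier results of these data known. Every liver's value was given for the urea cycle genes and, per pathway, for the gene with the largest log2 difference among those that passed in APAP against vehicle and in LRH1+APAP against APAP. Other genes were named up to 5 per direction by smallest p, with Nr5a2 and Ass1 in any case, and some items are not reported here. Values for every liver of Gldc, Amt, Agxt and Gpt with LRH1, and the promoters shown, were chosen after their values were seen. Of the 54 other pathway genes, 51 symbols were found.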

Additional observations from a re-analysis of the deposited data

How the results depend on the processing

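In no alternative did a called difference of any of the 35 genes turn its direction. Of 664 values per comparison, the side of the threshold stayed the same for 650 in APAP against vehicle, 512 in LRH1+APAP against APAP and 569 in LRH1+APAP against vehicle, and 12, 137 and 76 lost the call. The 29 genes lower in APAP numbered 28 to 30 in all alternatives. Those higher in APAP numbered 1 instead of 2 with no filter on low values, upper-quartile scaling, only the 6 libraries compared, or the transcript model of highest mean, and 1 to 2 when 1 liver was left out, Agxt being the one lost. The 15 genes higher with LRH1 than in APAP numbered 9 with no filter, 10 after upper-quartile scaling and 1 with only the 6 libraries, and 1 to 24 when 1 liver was left out. Those lower numbered 0 to 2 (Aass and Agxt without APAP liver 1, and 1, Agxt, without APAP liver 3). Against vehicle, LRH1+APAP livers had 0 genes higher after upper-quartile scaling, and 7 to 24 lower when 1 liver was left out. Why calls changed between the fits was not tested. A group left with 2 livers has its spread estimated mostly from the others.

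Same-numbered livers of different groups had correlations of -0.136 to 0.068 in their deviations over 9 pairs. Differently numbered livers of different groups had correlations of -0.179 to 0.197. No pairing by liver number was seen, but 3 livers a group are too few to exclude it. With the replicate block, 7 genes in place of 15 were higher in LRH1+APAP than in APAP, and 17 in place of 20 were lower than in vehicle, beside 4.16 percent of all genes in place of 7.13, and 7.11 in place of 8.02. Without read counts, depth limits the low genes, Acmsd above all.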
